A study of Mus musculus with 8 samples.

Results

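The small leucine-rich proteoglycans are secreted proteins of the connective tissue matrix. The 9 genes described here are Dcn, Bgn, Aspn, Lum, Fmod, Prelp, Omd, Ogn and Podn. A probe set is a group of short probes merged into 1 value. Members were every probe set that the annotation of the array assigns to 1 of these symbols and to no other gene. This gave 13 probe sets for the 9 genes, out of 45037 probe sets tested and 17097 genes with a symbol of their own. Aspn, Bgn, Ogn and Prelp each had 2 probe sets, called the brighter and the dimmer here, and the other 5 genes had 1.

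Dermal fibroblasts, the cells that make the collagen matrix of the skin, were sorted by flow cytometry from male C57Bl/6 mice, and their RNA was hybridised to Affymetrix expression arrays, 1 array for each mouse. The young group was 4 mice aged 2 months and the old group 4 mice aged 18 months, and the labels name no treatment and no altered allele for either. In both groups the subdermis had been removed before digestion with collagenase, and the sorted cells carried Pdgfra and CD34 and lacked CD45, CD117, CD24, CD31 and EpCam. RNA from 5000 cells of each mouse was amplified for 21 cycles, and the comparison asks how these cells differ between young and old mice. The bulk RNA of a sort cannot tell fewer cells that express a gene from less RNA for that gene in each cell.

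Each of these proteins folds into a curved stack of leucine-rich repeats that binds collagen, and most carry chondroitin, dermatan or keratan sulfate chains, long sulfated sugars attached in the Golgi apparatus. On the surface of collagen fibrils they govern how fibrils grow in width, fuse and become cross-linked. Several also bind growth factors such as TGF-beta or cell surface receptors. In skin, loss of decorin or lumican leaves irregular fibrils and fragile tissue.

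Fmod, Bgn and Prelp fell with age and no member rose past the threshold. Fmod fell 5.99-fold, Bgn 1.31-fold by its brighter and 1.34-fold by its dimmer probe set, and Prelp 1.26-fold and 1.25-fold, in 4 mice against 4. Dcn, Lum, Aspn and Podn had differences of at most 0.13 (log2) in either direction and did not pass. Ogn and Omd had higher means in old mice, by 0.65 and 0.62 (log2), and did not pass the threshold in the fit over all probe sets. Values are log2 expression values in which 1 unit is a doubling, changes are given as old minus young, each beside its standard error (SE), and the threshold is an adjusted p under 0.05 from limma with Benjamini-Hochberg adjustment over all 45037 probe sets.

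By that rule, 5 of the 13 member probe sets (38.5%), from 3 genes, were lower in old mice and 0 were higher. An unadjusted limma p under 0.05 was reached by 8, namely these 5, both Ogn probe sets and that of Omd. Ogn and Omd had higher means in old mice, and the share of all probe sets at this unadjusted level was not counted. Over all probe sets, 2.58% passed the threshold in either direction and 1.35% passed as lower in old mice, with 555 higher and 608 lower. The members were chosen with earlier results of these data known, so these shares are no test of the family. The median change of the 13 probe sets was -0.05, against 0.01 for all probe sets. The young and old values did not overlap in 7 member probe sets from 5 genes, in 2 of which the old mice were higher; 8.44% of all probe sets had groups that did not overlap. The plot of the change of each probe set gives these differences with their intervals.

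**Figure D1:**
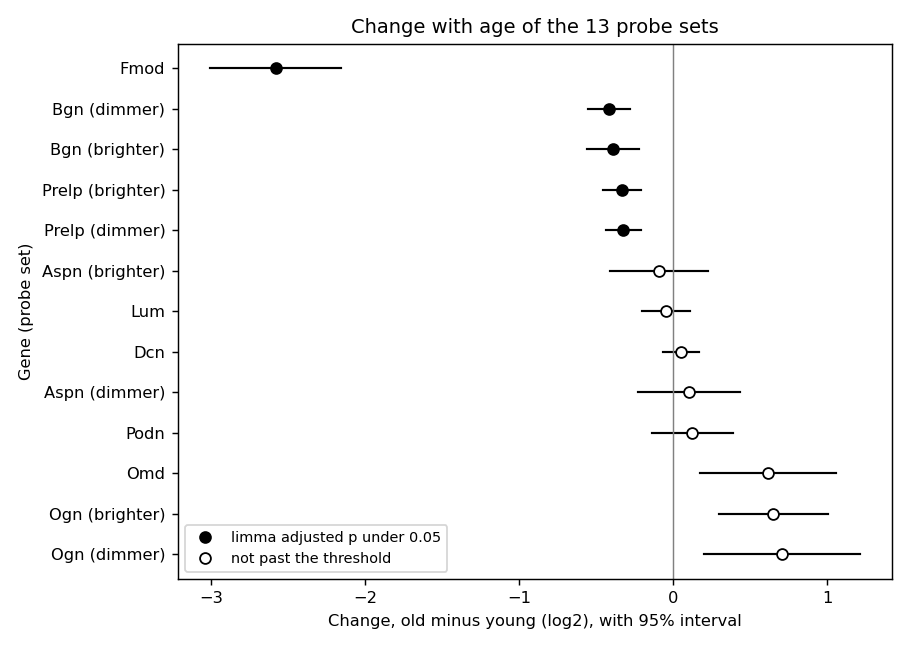
Change of each of the 13 probe sets between young and old mice (log2, old minus young, 4 mice each) with its 95% interval from limma on the horizontal axis, 1 line for each probe set. Filled points passed the adjusted p threshold; Fmod stands apart at -2.58, the Bgn and Prelp probe sets lie between -0.42 and -0.33, and the intervals of Dcn, Lum, Aspn and Podn include 0.

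The promoters of the 3 genes that fell, and of Ogn, which had a higher mean in old mice, are shown because they let the sequence next to each start be read beside the direction of each gene. The sequences are the 250 bases before the annotated start, from RefSeq on GRCm38.p6, written 5′ to 3′ on the strand of the gene, and 7 of the 9 genes had such a window. Dcn and Lum are named only.
Fmod promoter, chr1:134037004-134037253, plus strand: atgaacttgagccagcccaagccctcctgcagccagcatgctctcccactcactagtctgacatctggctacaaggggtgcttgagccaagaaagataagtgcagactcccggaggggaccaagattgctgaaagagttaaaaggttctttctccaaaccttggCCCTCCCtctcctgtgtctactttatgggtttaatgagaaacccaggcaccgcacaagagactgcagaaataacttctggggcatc
Prelp promoter, chr1:133921402-133921651, minus strand: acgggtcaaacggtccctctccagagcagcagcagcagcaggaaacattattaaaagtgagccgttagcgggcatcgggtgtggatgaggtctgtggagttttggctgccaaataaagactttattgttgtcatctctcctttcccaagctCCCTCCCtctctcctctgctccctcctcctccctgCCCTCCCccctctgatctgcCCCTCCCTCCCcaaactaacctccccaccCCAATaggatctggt
Bgn promoter, chrX:73483351-73483600, plus strand: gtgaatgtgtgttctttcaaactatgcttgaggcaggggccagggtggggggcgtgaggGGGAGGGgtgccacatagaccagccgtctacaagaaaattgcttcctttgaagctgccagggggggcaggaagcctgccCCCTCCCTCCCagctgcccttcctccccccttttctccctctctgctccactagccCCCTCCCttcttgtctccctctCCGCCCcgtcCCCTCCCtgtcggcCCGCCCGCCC
Ogn promoter, chr13:49607765-49608014, plus strand: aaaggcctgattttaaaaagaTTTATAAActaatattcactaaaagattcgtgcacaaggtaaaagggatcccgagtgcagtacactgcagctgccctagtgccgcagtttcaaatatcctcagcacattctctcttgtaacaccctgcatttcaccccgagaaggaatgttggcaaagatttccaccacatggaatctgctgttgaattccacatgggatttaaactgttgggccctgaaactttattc

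Capitals mark matches, on either strand, to 5 searched motifs. TATAAA is the core promoter box near many starts. GGGCGG is bound by Sp1. CCAAT is bound by NF-Y. TGANTCA is the motif of AP-1. CCCTCCC is a CT-rich run. The CT-rich run was chosen for the search after the sequences were seen. The CT-rich run was found once in the Fmod window, 4 times in that of Prelp and 5 times in that of Bgn, where a pair of matches overlapped and 1 lay on the reverse strand; a pair also overlapped in Prelp. It was found in 19.7% of all 32851 windows of the same length. Bgn also held 3 GGGCGG matches, all on the reverse strand and 2 of them overlapping, and Prelp held 1 CCAAT, motifs found in 32.7% and 33.8% of all windows. Ogn held 2 overlapping TATAAA matches on opposite strands, at 229 and 227 bases before the start, and no CT-rich run; TATAAA was found in 12.4% of all windows. Aspn had 2 TATAAA matches and 1 CCAAT, the 2 Podn windows had 1 CT-rich run each and 2 of GGGCGG in one of them, and Omd matched none of the 5. No member window matched TGANTCA, found in 6.75% of all windows. The G and C content was 64.4% for Bgn, 55.6% for Prelp, 51.2% for Fmod and 42.0% for Ogn, against a median of 52.4% over all windows. A match describes the letters in these windows and was not tested as a binding site.

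Fmod encodes fibromodulin, a keratan sulfate proteoglycan abundant in tendon that binds collagen and helps to set its cross-links. In the young mice its values were 8.90, 9.26, 9.58 and 8.78, and in the old mice 6.34, 6.87, 6.66 and 6.32. Every old mouse lay below every young mouse, with a gap of 1.91 between the lowest young and the highest old value. The mean fell from 9.13 ± 0.36 (SD, n = 4) to 6.55 ± 0.27 (SD, n = 4), a change of -2.58 ± 0.19 (SE; 95% interval -3.01 to -2.16) with an adjusted p of 0.000339. Ordered from the largest decrease, it stood at rank 11 of the 45037 probe sets. Both means lay above 5.10, the median of all probe sets' means, which is used here as the level under which a probe set is called dim.

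Markers of tendon and fascia, tissues rich in fibromodulin, differed in part between the ages. Thbs4, a tendon matrix protein, fell from 6.81 ± 0.49 to 5.46 ± 0.30 (SD, n = 4 each; adjusted p 0.0204), and Mkx, a tendon transcription factor, rose from 4.45 to 5.11, about the dim level (adjusted p 0.00562). Tnmd went from 9.63 to 9.13 and Scx from 5.19 to 5.52 without passing (adjusted p 0.187 and 0.086). The summed linear level of these 4 markers was 809 to 1071 in young mice and 556 to 805 in old mice. Most of this sum comes from Tnmd, the brightest of the 4, so it says little of the others. The part of these markers in the change of Fmod was not tested.

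Prelp encodes a protein with a basic end that binds heparan sulfate and so can tie basement membranes to collagen. The brighter probe set read 11.12, 11.10, 11.16 and 11.07 in young mice and 10.70, 10.81, 10.81 and 10.80 in old mice. All old values were lower than all young ones, and 1 old mouse lay below the other old mice. The change was -0.33 ± 0.06 (SE; 95% interval -0.46 to -0.21), from 11.11 ± 0.04 to 10.78 ± 0.05 (SD, n = 4 each), with an adjusted p of 0.0159. Without young replicate 3 this probe set no longer passed (adjusted p 0.051). The dimmer probe set gave 11.06, 11.05, 11.08 and 11.11 in young mice against 10.73, 10.76, 10.77 and 10.74 in old mice. Again the groups were apart, with a change of -0.33 ± 0.05 (SE) and an adjusted p of 0.0113, and it passed whichever mouse was left out. Fmod and Prelp are neighbours on chromosome 1.

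Bgn encodes biglycan, the close relative of decorin that carries chondroitin or dermatan sulfate and, when released from the matrix, engages Toll-like receptors. Its brighter probe set stood at 11.68, 11.64, 11.65 and 11.69 in young mice and at 11.27, 11.21, 11.47 and 11.15 in old mice. The old mice were all lower and more spread out, with 1 old mouse nearer to the young values. The mean fell from 11.67 ± 0.02 to 11.28 ± 0.14 (SD, n = 4 each), a change of -0.39 ± 0.07 (SE; 95% interval -0.56 to -0.22) with an adjusted p of 0.0289. This call was lost in 7 of 8 fits that left out 1 mouse, with adjusted p of 0.0768, 0.0739, 0.0731 and 0.0629 without young replicates 1, 2, 3 and 4, and of 0.0575, 0.0899 and 0.0800 without old replicates 1, 2 and 4. It passed without old replicate 3 (adjusted p 0.0126). The dimmer Bgn probe set read 11.65, 11.55, 11.59 and 11.54 in young mice and 11.17, 11.18, 11.25 and 11.06 in old mice. No value was shared between the ages here either. Its change was -0.42 ± 0.06 (SE; 95% interval -0.56 to -0.28), the adjusted p was 0.00865, and it passed in all 8 fits that left out a mouse.

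**Figure D2:**
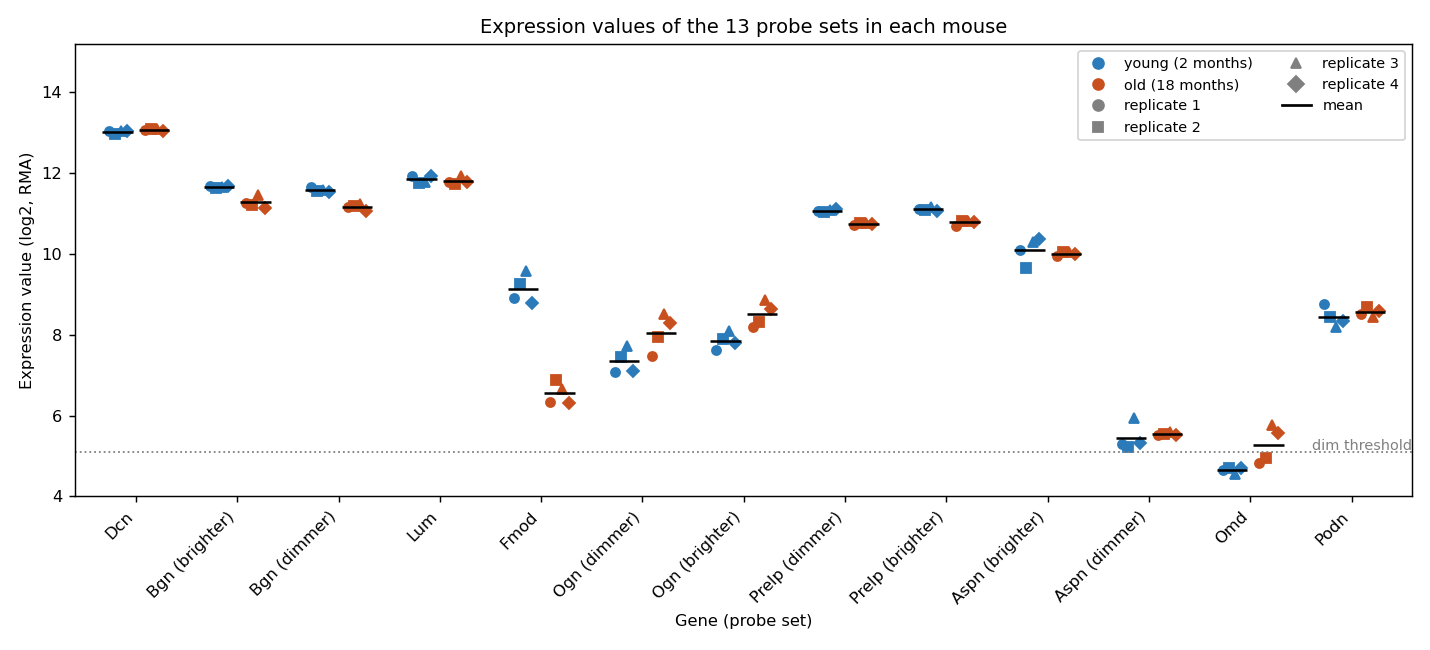
Level (log2, vertical axis) of each of the 13 probe sets in every mouse, with the probe sets side by side along the horizontal axis. Young mice stand beside old mice for each probe set, with a line at the group mean. The old mice lie below all young mice for Fmod, for both probe sets of Bgn and for both of Prelp, and above all young mice for the brighter Ogn probe set and for Omd.

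Ogn encodes osteoglycin, also called mimecan, a member found with collagen fibrils in many connective tissues, cornea and skin among them. The brighter probe set gave 7.63, 7.90, 8.10 and 7.79 in young mice and 8.18, 8.32, 8.87 and 8.65 in old mice. The groups did not overlap, but only 0.08 lay between the highest young and the lowest old mouse. The means were 7.86 ± 0.20 and 8.51 ± 0.31 (SD, n = 4 each), a difference of 0.65 ± 0.16 (SE; 95% interval 0.30 to 1.00) with an adjusted p of 0.0705, which missed the threshold. With the same change of 0.65, adjusted p was 0.0413 when dim probe sets were left out and 0.0188 with the run of sample titles as a block. It was 0.0281 with array weights, 0.0185 after a renewed quantile normalization and 0.0426 without old replicate 1. In the dimmer Ogn probe set the young mice read 7.09, 7.45, 7.73 and 7.11 and the old mice 7.48, 7.94, 8.51 and 8.28. The highest young value exceeded the lowest old one, and the difference of 0.71 ± 0.22 (SE; 95% interval 0.20 to 1.21) had an adjusted p of 0.168.

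Omd encodes osteomodulin, also called osteoadherin, a keratan sulfate proteoglycan known mainly from bone, and lies beside Ogn on chromosome 13. It was the only member probe set with a mean under the dim level in young mice, 4.66, 4.70, 4.56 and 4.71, and its old values were 4.82, 4.94, 5.76 and 5.57. Only 2 of the 8 arrays, old replicates 3 and 4, exceeded 5.10, and the other old mice lay just above the young ones. The difference of 0.62 ± 0.19 (SE; 95% interval 0.18 to 1.05) did not pass (adjusted p 0.168).

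Aspn encodes asporin, which binds collagen and TGF-beta and lies on chromosome 13 with Omd and Ogn. The brighter probe set read 10.09, 9.65, 10.30 and 10.37 in young mice and 9.94, 10.05, 10.04 and 10.00 in old mice. All old values fell inside the range of the young mice, which varied more, with SDs of 0.32 and 0.05. Its difference was -0.10 ± 0.14 (SE; 95% interval -0.41 to 0.22), with an adjusted p of 0.883, and it was 0.011 with array weights. Leaving out 1 mouse moved it between -0.25, without young replicate 2, and -0.0058, without young replicate 4. The dimmer probe set gave 5.29, 5.22, 5.95 and 5.31 in young mice and 5.53, 5.55, 5.59 and 5.51 in old mice, where 1 young mouse exceeded all others. Here the difference was 0.10 ± 0.15 (SE; 95% interval -0.23 to 0.43), opposite in sign to that of the brighter probe set, and it ran from 0.03 without young replicate 2 to 0.27 without young replicate 3 (adjusted p 0.0786).

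Dcn encodes decorin, the most studied member, which coats collagen fibrils, binds TGF-beta and can bind the receptors encoded by Egfr and Met. Its values were 13.04, 12.98, 13.05 and 13.05 in young mice and 13.08, 13.09, 13.10 and 13.04 in old mice. The ranges overlapped, and every value was close to the highest value of any probe set on the arrays, 13.22 to 13.32. The difference was 0.05 ± 0.05 (SE; 95% interval -0.07 to 0.16; adjusted p 0.815). So near the top of the scale, how well the probe set could resolve a change was not tested.

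Lum encodes lumican, a keratan sulfate proteoglycan that limits fibril width in skin and cornea and lies next to Dcn. The young mice read 11.93, 11.76, 11.79 and 11.92 and the old mice 11.78, 11.73, 11.92 and 11.78. The groups overlapped over most of their range, and the difference was -0.05 ± 0.07 (SE; 95% interval -0.20 to 0.11; adjusted p 0.878). Podn encodes podocan, a more distant relative that binds collagen. It stood at 8.76, 8.43, 8.19 and 8.34 in young mice and 8.51, 8.69, 8.44 and 8.58 in old mice, again overlapping, with a difference of 0.13 ± 0.12 (SE; 95% interval -0.14 to 0.39; adjusted p 0.768). Leaving out 1 mouse moved the Podn difference between 0.045, without young replicate 3, and 0.24, without young replicate 1. The interval of Lum reaches 0.20 (log2) at its farther end and that of Podn 0.39. That of Dcn holds for values near the top of the scale, and whether it limits the change of its transcript was not tested.

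The titles of the samples number the mice in 2 runs, each with 2 mice of either age. A pair of each age was also killed on each collection day, but the labels do not say that the runs are the days. Fmod changed by -2.48 in the first run and -2.69 in the second, the Bgn probe sets by -0.42 and -0.43 in the first and by -0.36 and -0.41 in the second, and the Prelp probe sets by -0.31 to -0.36 in both. Ogn differed by 0.49 in the first run and 0.82 in the second by its brighter probe set, and by 0.44 and 0.98 by its dimmer one. The difference of Omd was 0.20 in the first run and 1.03 in the second, and that of the brighter Aspn probe set changed sign, from 0.13 to -0.32. With 2 mice of each age in a run these values carry no test.

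**Figure D3:**
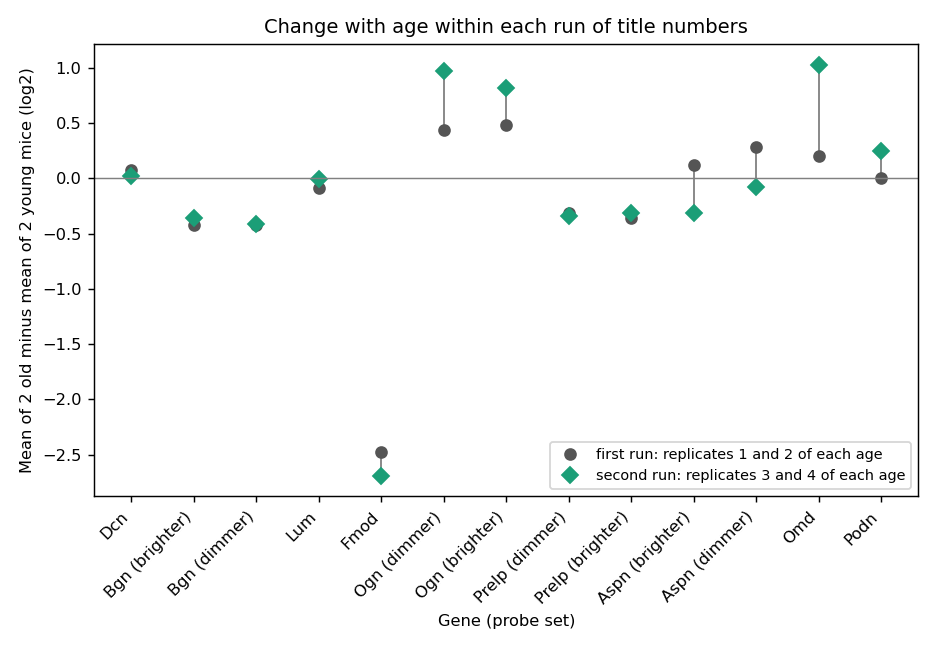
Change of each member probe set between young and old mice (log2) within each of the 2 runs of sample titles, 2 young and 2 old mice a run. Fmod, Bgn and Prelp lie below 0 in both runs, whereas Omd moves from 0.20 to 1.03 and the brighter Aspn probe set from 0.13 to -0.32.

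Members that lie in the same genomic cluster were compared within each mouse, as the log2 value of one minus that of the other, by an exact 2-sided permutation test over mice whose smallest possible p is 0.0286. Probe sets of different genes bind with different strength, so only the change of this quantity between the ages is read. The Fmod minus Prelp value was -2.29 to -1.58 in young mice and -4.48 to -3.94 in old mice, so the groups were apart. It changed by -2.25, with an exact permutation p of 0.0286 and 0.143 after adjustment over the 5 pairs compared. Ogn minus Aspn, from -2.58 to -1.75 in young mice and -1.76 to -1.17 in old mice, overlapped by a single pair of values. Its change was 0.75 (exact permutation p 0.0571, adjusted 0.143), and that of Omd minus Aspn was 0.71 (exact permutation p 0.0857, adjusted 0.143). Dcn minus Lum changed by 0.10 (exact permutation p 0.171, adjusted 0.214) and Ogn minus Omd by 0.04 (exact permutation p 0.914). No pair passed after adjustment, and a single pair at the smallest possible p reaches only 0.143 over 5 pairs.

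The genes whose values across the 8 mice were most like those of Fmod were Fxyd5, Tpst2, Rarres1, Crabp1, Bex3 and Capn6, taken by Pearson r from 10553 genes that were not dim. The r with Fmod was 0.995 for Fxyd5, a regulator of the sodium pump, and 0.990 for Tpst2, an enzyme that adds sulfate to tyrosines of secreted proteins. It was 0.988 for Rarres1, Crabp1 and Bex3, and 0.986 for Capn6. The mice form separate young and old clusters, so these values hold the difference between the ages and carry no p. After each age's mean was subtracted, r was 0.923 for Fxyd5, 0.893 for Rarres1, 0.807 for Tpst2, 0.730 for Crabp1, which encodes a retinoic acid binding protein, 0.694 for Bex3 and 0.583 for Capn6. The genes were picked by r over the same 8 mice, which also favours genes with like deviations within each age. So these later values describe the pick, are no separate support and carry no p. Crabp1 changed by -2.32, Fxyd5 by -1.76, Rarres1 by -1.29, Capn6 by -0.76, Tpst2 by -0.65 and Bex3 by -0.54 (log2).

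Genes around the family were read from 6 lists with 1 probe set a gene, the brightest. Of 84 genes on the lists, 78 were measured, 4 were higher in old mice and 9 lower, together 16.7%. Of all genes read in this way 3.36% passed the threshold. The lists were chosen with earlier results of these data known, so these shares are no test of the lists. Among the other small leucine-rich proteoglycans, 7 of 9 were measured and 4 of these were dim in both ages. Kera, which encodes keratocan, the keratan sulfate proteoglycan of the cornea and a neighbour of Lum, was the only 1 of the 7 called. It read 5.48, 5.87, 5.92 and 5.11 in young mice and 4.41, 4.44, 4.23 and 4.45 in old mice, below the dim level in every old mouse. The groups were apart, and the change was -1.21 ± 0.17 (SE; adjusted p 0.00586). Chadl, Chad and Epyc, the next by p, did not pass, with changes of 0.12, -0.07 and 0.05, and the list's median change was 0.01.

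Of the 34 measured genes that build the sugar chains, supply their sulfate or add sulfate to tyrosines, 4 (11.8%) passed the threshold. In old mice 1 was higher and 3 were lower. Of 21 measured genes of the linker and of chondroitin and dermatan sulfate synthesis, 1 rose and 1 fell, with a median change of -0.06. Chpf, which encodes a chondroitin polymerising factor, fell from 10.08 ± 0.08 to 9.35 ± 0.19 (SD, n = 4 each; adjusted p 0.00474). Ugdh, which makes the UDP-glucuronate used by these enzymes, rose from 9.68 ± 0.21 to 10.31 ± 0.24 (adjusted p 0.049), a call that was lost in 7 of 8 fits that left out a mouse. Those adjusted p were 0.125, 0.130 and 0.0972 without young replicates 1, 2 and 4 and 0.0832, 0.132, 0.0649 and 0.0661 without old replicates 1, 2, 3 and 4, against 0.0326 without young replicate 3. The call was also lost with a robust prior (adjusted p 0.052), with arrays centred on their median (0.0566) and after renewed quantile normalization (0.0598). The sulfotransferase genes Chst15 and Chst12 had changes of -0.60 and -0.46 and did not pass (adjusted p 0.054 and 0.229). Chst15 passed with the run of titles as a block (adjusted p 0.0245), with a prior by mean level (0.0434), without dim probe sets (0.0335) and with the brightest probe sets alone (0.0404). Of 13 measured genes of keratan sulfate synthesis and sulfate supply, 0 rose and 2 fell, with a median of -0.01. That list also holds Tpst1 and Tpst2, whose enzymes sulfate tyrosines and not sugar chains. Tpst2, whose kind of enzyme sulfates the tyrosines of fibromodulin, fell from 7.96 ± 0.12 to 7.31 ± 0.03 (adjusted p 0.00222). Chst2, a sulfotransferase for N-acetylglucosamine, fell from 7.51 ± 0.11 to 7.02 ± 0.05 (adjusted p 0.00712), while its other probe set changed by -0.08. Papss1, which makes the sulfate donor, and the galactosyltransferase gene B4galt4 did not pass, at -0.60 and -0.44 (adjusted p 0.0655 and 0.0835). With the run of titles as a block both passed (adjusted p 0.0117 and 0.033), which made 4 calls on this list. Papss1 also passed without dim probe sets (0.0404) and with the brightest probe sets alone (0.0492).

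Of 9 proteases known to cut members of the family, 1 rose and 1 fell, with a median change of 0.07. Mmp3, which encodes stromelysin, a matrix metalloprotease that cleaves decorin, fell from 11.23 ± 0.10 to 10.77 ± 0.07 (SD, n = 4 each; adjusted p 0.00931). Htra1, a secreted serine protease, rose from 10.67 ± 0.07 to 10.97 ± 0.03 (adjusted p 0.0303), but passed in only 1 of 8 fits that left out a mouse, that without old replicate 1 (adjusted p 0.0477). In the other 7, its adjusted p reached 0.0859, without old replicate 4. It also missed the threshold without dim probe sets (adjusted p 0.0615) and with arrays centred on their median (0.0521). Adamts4 and Mmp14 had changes of 0.27 and 0.17 and did not pass (adjusted p 0.221 and 0.369). The other Adamts4 probe set, at 9.96 and 10.41, changed by 0.45 (adjusted p 0.0554).

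Among 16 ligands and receptors that members bind, 2 rose and 0 fell, with a median change of 0.09. Met, which encodes the receptor for hepatocyte growth factor, rose from 5.51 ± 0.10 to 6.85 ± 0.33 (SD, n = 4 each; 2.53-fold; adjusted p 0.00234), and its other probe set changed by 1.00. The mice ranged from 5.37 to 5.62 when young and from 6.36 to 7.09 when old, so the groups were apart. Egfr, which encodes the receptor for epidermal growth factor, rose from 10.21 ± 0.10 to 10.79 ± 0.12 (adjusted p 0.00599), and 3 of its 6 probe sets passed, with changes from 0.07 to 0.64. Tgfb2, a TGF-beta ligand, and Tlr2, a receptor for biglycan, had changes of 0.55 and -0.41 and did not pass (adjusted p 0.0935 and 0.159).

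Among 12 collagens that form fibrils or lie beside them, 0 rose and 4 fell, and the median change was -0.35. That median lies between Col6a3 (-0.31) and Col1a2 (-0.40), which did not pass (adjusted p 0.689 and 0.312). They changed by -0.65 and -0.73 in the first run of titles, and by 0.04 and -0.08 in the second. The Col1a2 probe set read only 7.33 in young and 6.92 in old mice, far under that of Col1a1. Col11a1, a chain of a minor fibril collagen that lies inside fibrils, fell from 7.15 ± 0.40 to 5.08 ± 0.16 (SD, n = 4 each; adjusted p 0.000732), while its other probe set was dim in both ages (3.63 and 3.52) and gives no reading of the gene. Col5a3, a chain of type V collagen, fell from 9.87 ± 0.15 to 8.89 ± 0.19 (adjusted p 0.00246). Col6a2 and Col6a1, chains of the beaded microfibrils that biglycan binds, fell by 0.64 (adjusted p 0.0144) and 0.25 (adjusted p 0.0496), and Col6a1 passed in only 1 of 8 fits that left out a mouse, that without young replicate 4 (adjusted p 0.0432, and up to 0.132 without old replicate 4). The Col6a1 call was also lost with a robust prior (adjusted p 0.0523), without dim probe sets (0.102), with the brightest probe sets alone (0.0504) and with arrays centred on their median (0.0567). Col1a1, the main fibril chain, stood at 13.13 ± 0.06 and 13.08 ± 0.05, and Col3a1 at 12.67 ± 0.09 and 12.65 ± 0.05, and neither passed. Like those of Dcn, the Col1a1 values were close to the highest value of any probe set on the arrays. How well its probe set could resolve a change was not tested.

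**Figure D4:**
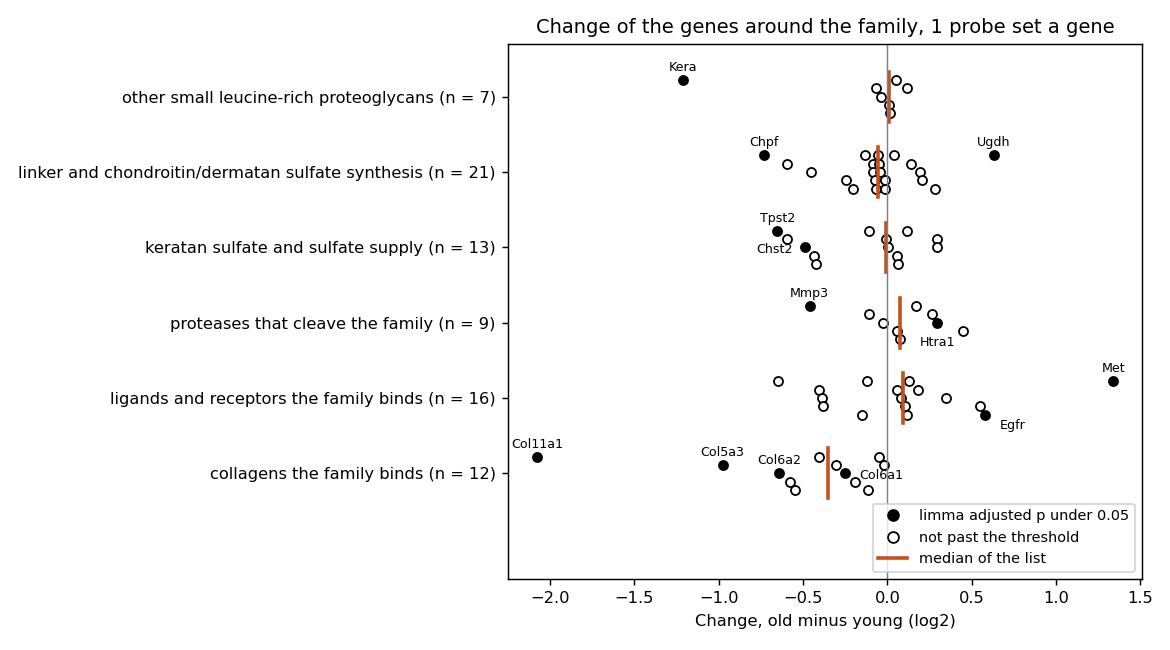
Change (log2, old minus young, horizontal axis) of each measured gene of the 6 lists, 1 point a gene by its brightest probe set, with the median of each list as a bar. Filled points passed the adjusted p threshold; the collagens have a median of -0.35 and 4 filled points below 0, and Met at 1.34 is the highest point of any list.

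Across the 8 arrays the medians lay between 5.06 and 5.14, and 0 pairs of arrays were identical. The 3' minus 5' value of the Gapdh control probe sets was -0.21 to -0.08 in young and -0.13 to -0.04 in old mice. That of the beta-actin control probe sets was -0.61 to -0.41 in young and -0.66 to -0.51 in old mice. How far these values reflect RNA integrity after 21 cycles of amplification was not tested. Of the sorting markers, Cd34 was bright in both ages (10.82 and 11.01), whereas the only probe set for Pdgfra alone read 5.06 and 4.47, near or under the dim level, and could not check that marker. Ptprc (CD45) at 3.43 and 3.51 and Kit (CD117) at 3.79 and 3.82 were under the dim level. Pecam1 (CD31) read 5.89 and 6.06 and Epcam 5.05 and 5.45, and neither difference passed. Of 7 fibroblast markers 1 was called, Thy1, which fell by 0.61 (adjusted p 0.00208). The median change of the 7 was -0.23. Their summed linear level was 18459.1 to 19494.3 in young and 16652.5 to 17694.2 in old mice. Vim was lower (-0.23, adjusted p 0.0623) and Cd34 higher (0.20, adjusted p 0.126) in old mice, both with groups apart, and neither passed. Of the 12 marker lists, those of melanocytes and of tendon and fascia also held calls. Among 5 epithelium markers, which the sort should remove, limma called 0, with 2 at an unadjusted p under 0.05, the median change was 0.35 and the summed linear level was 318 to 581 in young and 419 to 1236 in old mice. Krt5 read 6.83 ± 0.70 and 7.95 ± 0.78 (SD, n = 4 each; adjusted p 0.267) with overlapping groups, and the groups were apart for Epcam (adjusted p 0.0715). Among 6 leukocyte markers, again with 0 called by limma and 1 at an unadjusted p under 0.05, Cd79a read 6.62 ± 0.15 and 7.08 ± 0.19 with groups apart (adjusted p 0.0694). Csf1r (8.85 and 8.82) and Cd68 (6.69 and 6.82) also lay above the dim level in both ages. The other 3 leukocyte markers were dim in both ages. Mlana, a melanocyte gene, rose from 6.23 ± 0.59 to 9.10 ± 0.61 (SD, n = 4 each; adjusted p 0.00347), 1 of 5 melanocyte markers. The summed linear level of the 5 was 155 to 226 in young and 472 to 1011 in old mice, but the others, Tyr, Dct, Tyrp1 and Pmel, had changes between -0.085 and 0.12, did not pass, and were dim in both ages except Pmel (5.50 and 5.41). The part of other cell types in the changes of Fmod, Bgn, Prelp and the listed genes was not tested.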

How the data were processed

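Expression was measured on 8 arrays, 1 for each mouse. The deposited log2 values, 1 per probe set and array, were made by the authors with RMA and affy; both names come from the submitters' processing notes, without versions. RMA removes background, gives all arrays the same distribution and merges the probes of each set into 1 value, which can compress changes of very bright and very dim probe sets. The version of the array is not given in the sources used here, and the table held 45141 probe sets, of which 104 controls were left out. The 23 non-specific control probe sets had a median of 3.91 (2.98 to 7.20), so a value above the dim level of 5.10 can still lie within their range. Gene names came from the platform annotation, in which 28898 probe sets had 1 symbol. No detection calls were used, and the number of arrays limits the precision.

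Old and young mice were compared by limma's 2-sided moderated test (lmFit, then eBayes; limma 3.58.1, R 4.3.3) over all 45037 probe sets, with Benjamini-Hochberg adjustment and no covariate. Adjusted p are those of this fit unless a setting is named or it is adjusted over the pairs. Replicates are separate mice, and their numbers follow sample order and pair nothing. The members and the gene lists were chosen with earlier results of these data known. The named genes were all member probe sets, up to 4 genes a list with the smallest p and the 6 genes most like the member with the largest change. Marker genes and the collagen genes Col1a1, Col1a2, Col3a1 and Col6a3 were named besides. Pairs were tested by exact permutation (SciPy 1.17.1). Alternatives changed the eBayes prior, array weights, the filter on dim probe sets, the probe sets tested, the scaling, the threshold, a block for the run of titles, and left out each mouse in turn. On simulated data for old against young with 45037 probe sets, changes of 0.5, 1, 2 and 3 (log2) were recovered in 38%, 92%, 100% and 100% of cases, 5.71% of calls were false, and 0 calls were made when nothing was changed. The simulation drew independent normal noise and changed fewer probe sets than passed in the real data. Its rates therefore need not hold for the real comparison.

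Promoter windows and the build GRCm38.p6 come from RefSeq tables. No protein sequences were used here.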

Additional observations from a re-analysis of the deposited data

Results flagged for a closer look

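In a group of 4 mice, a single value was compared with the others by the share of the group's range that separates it from its nearest neighbour, with Dixon's 95% critical value for 4 values as the limit. Among 74 groups, those of the 13 member probe sets and of the genes named from the lists, 5 exceeded it, and chance alone does so in about 1 of 20 groups. Dcn in young replicate 2 read 12.98 against 13.04 to 13.05 in the other young mice (share 0.857). The brighter Prelp probe set read 10.70 in old replicate 1 against 10.80 to 10.81 in the other old mice (0.909), and the dimmer Aspn probe set read 5.95 in young replicate 3, where the next young mouse was at 5.31 (0.877). Chpf read 10.20 in young replicate 4, with the next at 10.05 (0.882), and Chst2 read 7.10 in old replicate 1, with the lowest of the other old mice at 6.99 (0.909). Over all measured genes of the 6 lists, 13 of 156 groups (8.33%) exceeded the limit, 7 of them through young replicate 4 and 3 through old replicate 1. Over all probe sets 5.93% did, and these same mice accounted for the most, 1130 and 1402 of 5339. Without young replicate 4, 4 member probe sets and 14 listed genes passed the threshold in limma, and without old replicate 1, 5 and 11 did. The causes were not tested.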

How the results depend on the processing

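The change of Fmod lay between -2.70 and -2.43 when each mouse was left out and passed in all 8 fits. The cause of the shifts listed here was not tested, except that a stricter threshold, or 1 probe set a gene, allows fewer calls by construction. Of all probe sets, 1163 passed in the fit reported, 679 with the brightest probe set of each gene, 409 at an adjusted p under 0.01, 1713 with array weights, 1712 with the run of titles as a block, and 698 to 1089 when each mouse was left out, with 725, 713, 721, 698 and 707 without young 2, old 2, young 3, old 3 and old 4. Of the member probe sets 5 passed, 3 with the brightest probe set of each gene, 2 at an adjusted p under 0.01, 6 with array weights, without dim probe sets, after renewed quantile normalization or with the block, and 3 to 5 when each mouse was left out, with 3 without young 3. At an adjusted p under 0.01, the brighter Bgn probe set (-0.39) and both Prelp probe sets (-0.33 each) did not pass. Leaving out each mouse gave -0.46 to -0.35 for the brighter Bgn probe set, -0.35 to -0.31 for the brighter Prelp one and 0.53 to 0.76 for the brighter Ogn one. The brighter Ogn probe set passed with array weights (0.70), without dim probe sets (0.65), after renewed quantile normalization (0.69) and with the run of titles as a block (0.65). With array weights the brighter Aspn probe set changed sign, to 0.011. Epyc ranged from -0.0008 to 0.086 and Ogn minus Omd from -0.041 to 0.149 when each mouse was left out. With 3 against 4 mice the smallest exact permutation p is 0.0571, so no pair could pass. Calls on the 6 lists numbered 13, and 9 to 16 under the alternatives. The block for the run of titles is no replicate block. No paired analysis was possible because the labels give no number that the young and old mice share as pairs.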

Other observations

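Genes next to members that do not belong to the family were read as a description of their surroundings. Of 16 such neighbours, 13 were measured, and limma called 0 of them, with 1 at an unadjusted p under 0.05. Their changes ran from -0.30 to 0.11 (log2), and the lowest adjusted p was 0.261. Beside Fmod and Prelp, Btg2, an antiproliferative gene, read 10.87 ± 0.13 in young and 10.85 ± 0.13 in old mice (SD, n = 4 each). Btg1, next to Dcn, read 11.24 ± 0.15 and 11.34 ± 0.07. Cenpp, a centromere gene in the cluster of Aspn, Omd and Ogn, read 6.85 ± 0.08 and 6.81 ± 0.05, and Nol8 there read 5.41 ± 0.29 and 5.37 ± 0.13. Cpt2, a mitochondrial fatty acid enzyme near Podn, read 6.30 ± 0.22 and 6.00 ± 0.12 and was the one at an unadjusted p under 0.05.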
